A study of Homo sapiens with 6 samples.

Results

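The 4 genes WDR33, HAS3, SYTL2 and SH3YL1, whose mean transcript length differed between 2 groups of A549 cells, are 4 of the 20824 genes listed in any library. A549 is a human lung adenocarcinoma line. C19orf12 encodes a small membrane protein found at mitochondria. One group carried a scrambled short hairpin RNA (sh-scramble, the wild-type control) and the other a hairpin that lowers C19orf12 (C19orf12 knockdown), with 3 libraries in each. The knockdown sample names share a common middle number that the labels do not explain. The labels name no passage, culture or day, and nothing in them says that the replicates were separate cultures, so p-values measure only the spread between these libraries, which may be technical. RNA was taken up with oligo-dT beads. For each gene and library the files give an estimated count, an FPKM value (the level scaled to transcript length and library depth) and a mean transcript length, which is the average length of the gene's transcripts in that library, each weighted by its estimated abundance. The genes were chosen because this mean length differed between the groups. Their lengths, counts and levels in this comparison are therefore given as a description, without a test.

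Many human genes make messenger RNAs of several lengths. A transcript can begin at another start site, skip or gain exons, or end early when cleavage and polyadenylation occur inside an intron. Such transcripts can encode shortened proteins, or differ only in their untranslated parts. A gene's read count can therefore stay level while the kind of transcript behind it differs.

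Libraries held 10229890 to 10647587 estimated counts and listed 18286 to 18582 genes. Scramble replicate 3 stood apart. Its log2 CPM (estimated counts scaled to library size, a scale used throughout for counts) correlated at 0.954 and 0.955 with those of the other scramble libraries, which correlated at 0.995 with each other, while knockdown libraries correlated at 0.994 to 0.995. Genes are not independent replicates in these values. The spread between replicates in the edgeR fit (biological coefficient of variation) was 18.9% over all 6 libraries and 2.97% without scramble replicate 3. A spread as small as the latter may be technical, and p-values without that library rest on it. Mean lengths and levels of the 4 genes are also given without scramble replicate 3. C19orf12 fell, from 42.5, 41.1 and 63.3 CPM in the scramble libraries to 24.2, 26.4 and 25.2 CPM after knockdown (log2 fold change -0.95, SE 0.20, edgeR adjusted p = 0.015). Of 6 epithelial marker genes all were listed, at a summed 3340 to 4530 CPM in scramble and 9980 to 10200 CPM in knockdown libraries, and CDKN2A, which A549 cells have lost, was not listed in any library. Another 7 genes, known to be high in KEAP1-mutant lines such as A549, summed to 19600 to 20400 and 19300 to 19600 CPM. Summed levels were 38.1 to 46.4 and 23 to 25.1 CPM for 4 fibroblast markers, 2.65 to 4.02 and 3.08 to 3.77 CPM for 3 endothelial markers, and 120 to 153 and 69.5 to 73.4 CPM for 7 markers of alveolar type 2 cells. Of these, 3 of the 4 fibroblast, 2 of the 3 endothelial and 3 of the 7 alveolar markers had under 10 counts, so the sums rest on few genes. In RNA from whole cultures, fewer cells of a type and less RNA per cell cannot be told apart. The part of these differences in the results below was not tested.

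Shifts of this size were rare. Among 6511 genes with 2 or more transcripts and at least 50 counts in each library, the median absolute log2 ratio of mean length was 0.004 and the 95th percentile was 0.05. The groups did not overlap in mean length for 830 of them (12.7%). A ratio of at least 1.2-fold without overlap was seen in 6 genes (0.0922%), 3 longer and 3 shorter in knockdown (0.0461% each way). SH3YL1 and HAS3 were among these 6. WDR33, at 1.17-fold, lay just under that limit and ranked 16th of the 6511 for lengthening. SYTL2 had 35.09 counts in scramble replicate 3 and so missed the minimum of 50. With a minimum of 10 counts, 7693 genes were compared and SYTL2 ranked 9th for shortening. At the lower minimum 16 genes (0.208%) passed the 1.2-fold limit, 5 longer (0.065%) and 11 shorter (0.143%). The count of 6 became 16 and 15 without scramble replicates 1 and 2 and to 14 and 15 without knockdown replicates 2 and 3. Shifts beyond those of the 4 genes were seen in LINC01588, a long noncoding RNA gene (log2 ratio -0.44), and ICA1L (-0.42) for shortening, and in CARD8 (0.38) for lengthening; these 3 varied more within their groups, with CARD8 at 2774.65 to 3566.57 bases in scramble and 3715.19 to 4862.67 bases in knockdown libraries. The members were chosen on these ratios, so their ranks support nothing further.

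**Figure D1:**
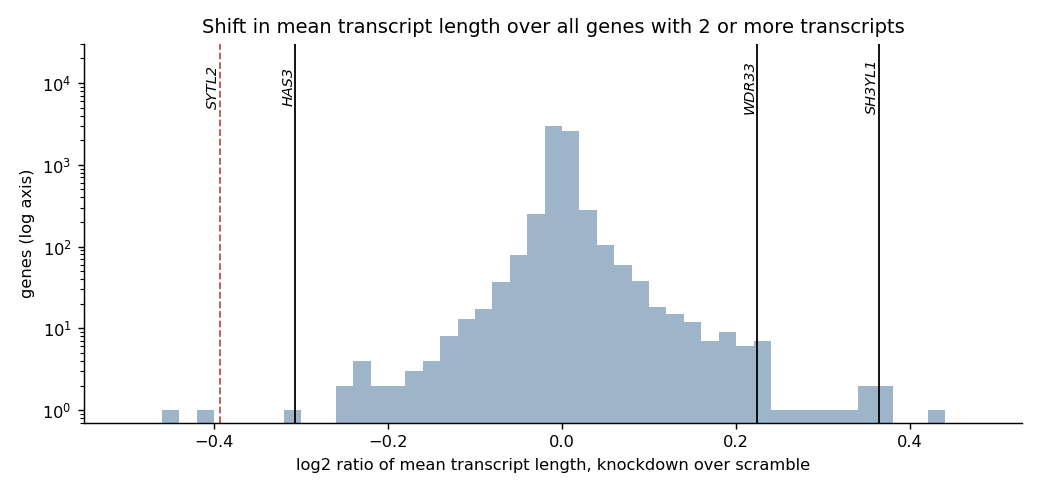
Number of genes (log axis) by log2 ratio of mean transcript length, knockdown over scramble, for the 6511 genes with 2 or more transcripts and at least 50 counts in each library. Most genes lie near 0, and the vertical lines mark the 4 genes described; SYTL2 (dashed) is not among the 6511.

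WDR33 made longer transcripts on average in the knockdown libraries. The gene (Entrez 55339, chromosome 2) encodes a subunit of the cleavage and polyadenylation specificity factor, the complex that reads the AAUAAA signal and cuts the pre-mRNA before a poly(A) tail is added. Its mean transcript length was 4538.46, 4513.91 and 4683.66 bases in scramble replicates 1, 2 and 3 and 5256.56, 5389.44 and 5398.95 bases in knockdown replicates 1, 2 and 3. All 3 knockdown libraries lay above all 3 scramble libraries, with a gap of 572.9 bases between the groups against a range of 169.8 bases within scramble and 142.4 bases within knockdown. The means were 4579 ± 91.7 and 5348 ± 79.6 bases (SD, n = 3 each). Without scramble replicate 3 the scramble mean was 4526 bases.

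The files list 3 RefSeq transcripts for WDR33, all matched by accession to GENCODE 29 (GRCh38, minus strand). The full-length NM_018383 has 22 exons, 9471 bases and a coding part of 4008 bases. NM_001006622 stops within what is an intron of the full-length form, with 6 exons, 3104 bases and 978 coding bases, and NM_001006623 also ends early, with 8 exons, 3574 bases and 771 coding bases. The 2 short forms end 48638 and 75783 bases downstream of the first base of the gene, against 110149 for the full-length form. In the pair of sequences that follows, the coding strand is shown 5′ to 3′ around the place where NM_001006622 parts from NM_018383, after 626 shared coding bases in exon 6; lower case is shared and capitals are the 30 coding bases that come next.
NM_018383: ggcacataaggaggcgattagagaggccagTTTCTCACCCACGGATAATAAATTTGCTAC
NM_001006622: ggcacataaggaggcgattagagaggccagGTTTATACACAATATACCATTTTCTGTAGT
The full-length form is spliced here, while the short form reads on through the splice site into the intron and keeps 352 further coding bases. NM_001006623 parts from the full-length form at the end of exon 7, after 724 shared coding bases, and joins a last exon of 2667 bases that holds its remaining 47 coding bases.
NM_018383: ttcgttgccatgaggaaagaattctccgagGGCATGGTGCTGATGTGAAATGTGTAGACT
NM_001006623: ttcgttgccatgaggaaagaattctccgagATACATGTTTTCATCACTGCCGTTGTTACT

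Because the 2 short forms are close in length, the mean length limits the share of the full-length form to a narrow range. A share here is the percent of the gene's transcript molecules. The full-length share was 16.4% to 22.5% in scramble replicate 1, 15.9% to 22.1% in replicate 2 and 18.8% to 24.8% in replicate 3. In the knockdown libraries it was 28.5% to 33.8%, 30.8% to 35.9% and 30.9% to 36%. The ranges of the groups did not meet. They use reference lengths, which may differ from those of the authors' annotation: of 9451 genes with a single matched transcript, 71.1% had a reference length within 5% of the deposited one. With each length free to vary by 5%, an alternative chosen after seeing the data, the ranges met, at 12.3% to 28.7% in scramble and 24.3% to 40.5% in knockdown libraries.

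Counts of WDR33 were nearly level while its composition differed. Scramble replicates 1, 2 and 3 had 70.5, 70.7 and 57.7 CPM, the knockdown libraries 72.7, 69.9 and 68.8 CPM, so the groups overlapped. The log2 fold change was 0.09 (SE 0.15), and without scramble replicate 3 it was -0.003. Per length, the level was 16.04, 16.29 and 11.82 FPKM in scramble and 13.38, 12.53 and 12.38 FPKM in knockdown libraries. Multiplied by the share, the full-length form was at 2.62 to 3.61, 2.6 to 3.61 and 2.22 to 2.93 FPKM in scramble replicates 1, 2 and 3 and at 3.82 to 4.52, 3.86 to 4.5 and 3.83 to 4.46 FPKM in the knockdown libraries. The short forms together were at 12.4 to 13.4, 12.7 to 13.7 and 8.89 to 9.6 FPKM in scramble and 8.86 to 9.56, 8.03 to 8.67 and 7.92 to 8.55 FPKM in knockdown libraries. With the reference lengths, the full-length form was thus higher in all 3 knockdown libraries than in any scramble library. The short forms were lower than in scramble replicates 1 and 2 but met scramble replicate 3. Where each length may vary by 5%, the levels of the full-length form also meet between the groups. The 5531-base last exon of the full-length form shares 3735 bases, none of them coding for WDR33, with SFT2D3 on the other strand. The strand setting of the authors' counting is not known from the labels, and without strand, reads of the 2 genes there cannot be told apart. SFT2D3 was at 24.4, 22.6 and 35.1 CPM in scramble and 23.5, 24.6 and 21 CPM in knockdown libraries, and it was not called (log2 fold change -0.25, SE 0.20, edgeR adjusted p = 0.505). Its part in the WDR33 lengths was not tested.

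**Figure D2:**
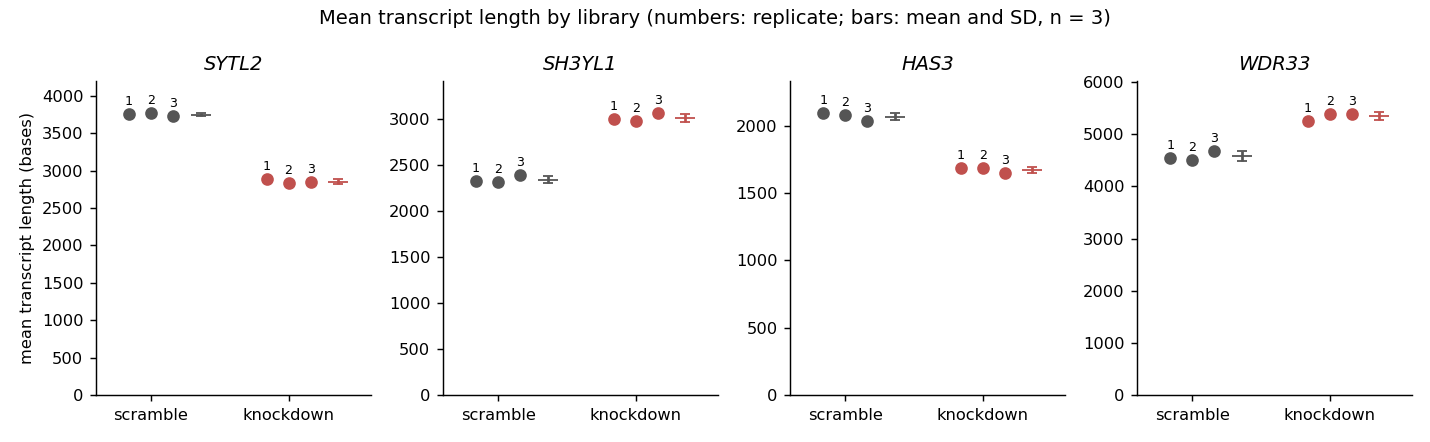
Mean transcript length in bases for each of the 4 genes in each library, with replicate numbers, and the group mean with SD (n = 3). SYTL2 and HAS3 are shorter and SH3YL1 and WDR33 longer in all 3 knockdown libraries than in all 3 scramble libraries, scramble replicate 3 included.

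HAS3 was shorter and less abundant in the knockdown libraries. The gene (Entrez 3038, chromosome 16) encodes hyaluronan synthase 3, a membrane enzyme that builds the polysaccharide hyaluronan from UDP-sugars and extrudes it from the cell. Mean length was 2090.58, 2078.12 and 2035.17 bases in scramble replicates 1, 2 and 3 and 1684.79, 1686.48 and 1645.41 bases in knockdown replicates 1, 2 and 3. The groups did not overlap, and the 348.7-base gap between them compared with ranges of 55.4 bases within scramble and 41.1 bases within knockdown. The means were 2068 ± 29.1 and 1672 ± 23.2 bases (SD, n = 3 each), a 1.24-fold difference. Without scramble replicate 3 the scramble mean was 2084 bases.

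Its 3 transcripts have 4 exons each. NM_005329 (4220 bases) and NM_001199280 (2170 bases) carry the same 1659-base coding length and differ in their first exon and in the length of the last, 3326 against 1208 bases. NM_138612 (1163 bases, 843 coding) uses another last exon of 365 bases further downstream, so that it encodes a shortened protein. The lines below show, on the plus strand, where it parts from the long form at the end of exon 3, after 738 shared coding bases; capitals are the 30 coding bases that follow.
NM_005329: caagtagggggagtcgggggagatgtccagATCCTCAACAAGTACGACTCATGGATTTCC
NM_138612: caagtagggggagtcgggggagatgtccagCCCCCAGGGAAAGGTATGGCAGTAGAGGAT
After this point the long form has 921 coding bases left and the short form 105. The scramble mean lengths lay just under that of NM_001199280, and the knockdown means lay between NM_001199280 and NM_138612.

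With 3 transcripts of unequal length, the mean allows a wide range of shares. NM_138612 could make up 7.89% to 69.7%, 9.12% to 70.1% and 13.4% to 71.5% of the HAS3 transcripts in scramble replicates 1, 2 and 3, and 48.2% to 82.9%, 48% to 82.9% and 52.1% to 84.2% in the knockdown libraries. The lower limit was higher in all 3 knockdown libraries than in any scramble library, but the ranges overlapped. The longest form, NM_005329, could reach at most 28.5% to 30.3% in scramble and 15.8% to 17.1% in knockdown libraries, with 0 allowed in each. With each length free to vary by 5%, NM_138612 could make up 0 to 74.6% in scramble and 39.2% to 86.8% in knockdown libraries.

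HAS3 counts were lower in every knockdown library. Scramble replicates 1, 2 and 3 had 45.1, 51.5 and 71 CPM, and the knockdown libraries 27.1, 26.5 and 27.1 CPM. The group means were 55.9 ± 13.5 against 26.9 ± 0.375 CPM (SD over 3 libraries). The groups did not overlap, and the log2 fold change was -1.05 (SE 0.20), or -0.84 without scramble replicate 3. Such separation was common. Among the genes tested in the lists below, it was seen in 11 of 24 for Rab27, 9 of 16 for hyaluronan, 11 of 25 for polyadenylation and 14 of 32 for phosphoinositides. The share over all genes is not given here. Per length the HAS3 difference was smaller, with 22.47, 26.02 and 33.81 FPKM in scramble and 15.8, 15.4 and 16.25 FPKM in knockdown libraries. The forms with the whole coding part were together at 6.82 to 20.7, 7.79 to 23.6 and 9.65 to 29.3 FPKM in scramble and at 2.7 to 8.19, 2.64 to 8.01 and 2.56 to 7.78 FPKM in knockdown libraries. With the reference lengths these ranges met only between 6.82 and 8.19 FPKM, and they meet more widely where the lengths may vary. NM_138612 was at 1.77 to 15.7, 2.37 to 18.2 and 4.53 to 24.2 FPKM and at 7.61 to 13.1, 7.39 to 12.8 and 8.47 to 13.7 FPKM, and no direction can be read from these. All 365 bases of its last exon lie within exons of CHTF8 on the other strand. CHTF8 was at 124, 120 and 189 CPM in scramble and 111, 113 and 119 CPM in knockdown libraries and was not called (log2 fold change -0.33, SE 0.20, edgeR adjusted p = 0.338). If strand was not used in counting, reads of CHTF8 and of this HAS3 exon cannot be told apart, and their part in the HAS3 length was not tested.

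**Figure D3:**
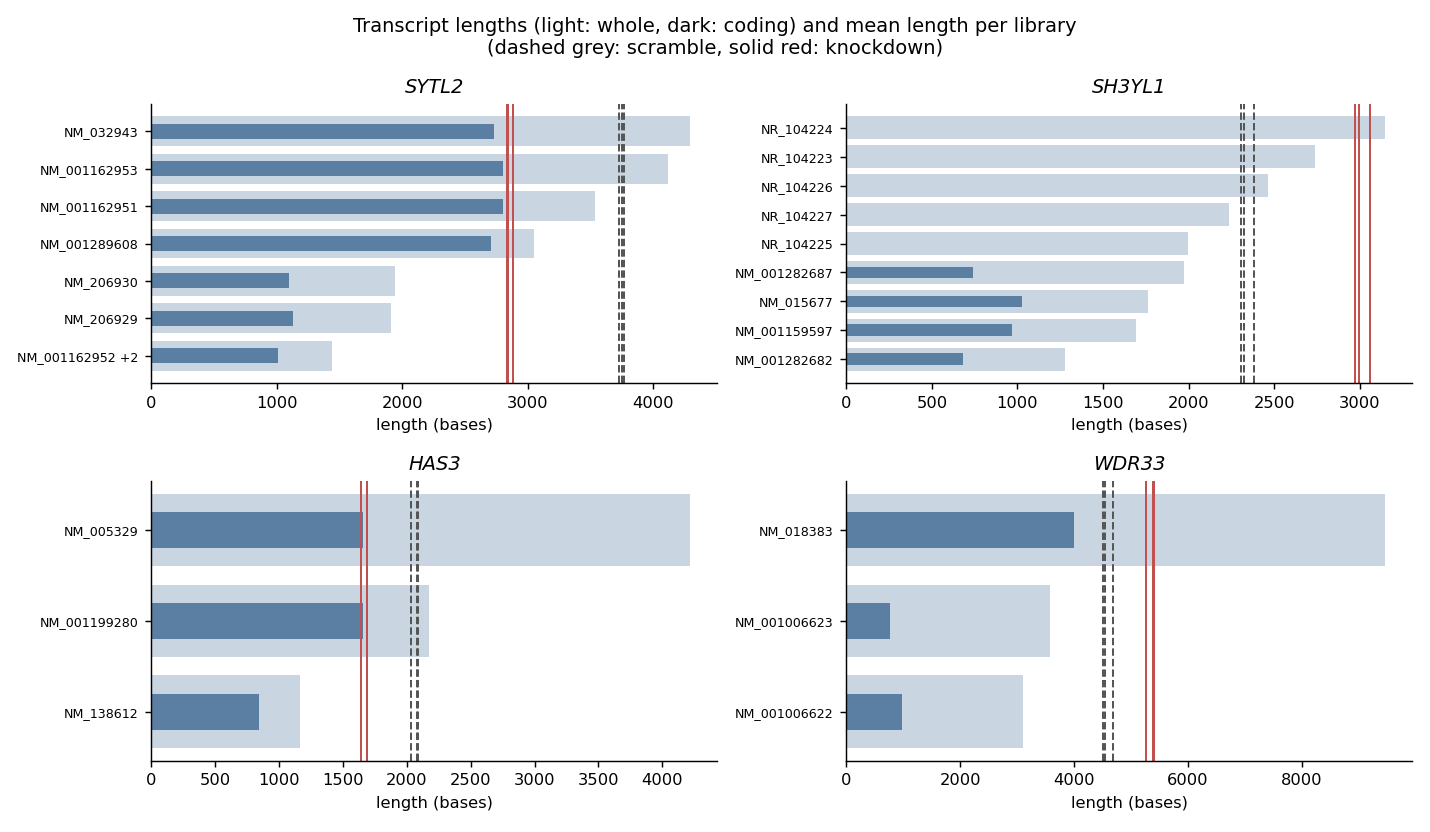
Lengths in bases of the matched transcripts of each gene (light bars, whole transcript; dark bars, coding part of the protein-coding RefSeq entries), with the mean length in each scramble (dashed grey) and knockdown (solid red) library. In SH3YL1 the knockdown lines lie beyond all transcripts but NR_104224, and in HAS3 they lie left of NM_001199280; the label +2 marks a match shared by 3 accessions.

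SYTL2 was shorter in the knockdown libraries by the widest margin in bases of the 4 genes. The gene (Entrez 54843, chromosome 11) encodes synaptotagmin-like protein 2, which binds the small GTPase Rab27 through its N-terminal end and membrane phospholipids through C2 domains at its C-terminal end, and takes part in docking vesicles at the plasma membrane. Mean length was 3754.03, 3769.81 and 3726.88 bases in scramble replicates 1, 2 and 3 and 2887.76, 2833.31 and 2844.2 bases in knockdown replicates 1, 2 and 3. The gap between the groups was 839.1 bases, against ranges of 42.9 bases within scramble and 54.5 bases within knockdown. The means were 3750 ± 21.7 and 2855 ± 28.8 bases (SD, n = 3 each), and 3762 bases for scramble without replicate 3. These lengths rest on few reads, with 91.17, 85.04 and 35.09 estimated counts in scramble and 107.03, 83.06 and 85.47 in knockdown libraries. Scramble replicate 3, with the fewest counts, lay only 35 bases below the mean of the other scramble libraries.

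The 9 accessions of SYTL2 match 7 GENCODE transcripts, since 3 of them share 1 match, so the lengths of those 3 are uncertain. They fall into 2 classes. The long class, 4 transcripts of 3049 to 4299 bases, starts at 0 to 53156 bases from the gene's first base and has 2706 to 2805 coding bases in 18 or 19 exons. The other class, of 1441 to 1943 bases, starts far downstream, at 91991 to 92061 bases, and has 1008 to 1128 coding bases in 9 to 12 exons. Both classes end in the same region, at 116073 to 116935 bases, so they differ mainly at the 5′ end of the gene. The long class could make up 76.9% to 100%, 77.5% to 100% and 75.7% to 100% of the SYTL2 transcripts in scramble replicates 1, 2 and 3 and 40.1% to 90%, 37.8% to 86.6% and 38.3% to 87.3% in the knockdown libraries. These ranges overlapped. With the reference lengths the mean in each knockdown library required at least 10% of the short class, and the mean in each scramble library allowed none of it. With each length free to vary by 10%, the knockdown means allowed none of it either.

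SYTL2 counts were low and did not separate the groups. They were 8.45, 7.89 and 3.39 CPM in scramble and 10.7, 8.29 and 8.44 CPM in knockdown libraries. The log2 fold change was 0.47 (SE 0.31) and moved to 0.16 without scramble replicate 3. Per length the levels were 2.33, 2.18 and 0.88 FPKM in scramble and 3.61, 2.85 and 2.92 FPKM in knockdown libraries, so here all knockdown libraries lay above all scramble libraries. Without scramble replicate 3 the knockdown mean was 1.12-fold higher in CPM and 1.39-fold higher in FPKM. FPKM divides by the length, which was shorter in the knockdown libraries, and its scaling to library depth also differs from that of CPM.

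SH3YL1 was longer and, without scramble replicate 3, lower in the knockdown libraries. The gene (Entrez 26751, chromosome 2) encodes an adapter with an SH3 domain and a lipid-binding SYLF domain that recognises phosphoinositides. Mean length was 2323.17, 2306.12 and 2382.72 bases in scramble replicates 1, 2 and 3 and 2998.02, 2970.62 and 3059.45 bases in knockdown replicates 1, 2 and 3. The groups did not overlap, with a gap of 587.9 bases against ranges of 76.6 bases within scramble and 88.8 bases within knockdown. The means were 2337 ± 40.2 and 3009 ± 45.5 bases (SD, n = 3 each), a 1.29-fold difference, and the scramble mean was 2315 bases without replicate 3. Estimated counts were 121.03, 149.97 and 53.01 in scramble and 74, 83.02 and 57.01 in knockdown libraries.

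Of its 9 RefSeq transcripts 4 are protein-coding (NM) and 5 are noncoding (NR). The coding ones are short, with 1279 to 1973 bases, and the noncoding ones run from 1999 to 3151 bases. The longest, NR_104224, has 7 exons and ends 25249 bases into the gene, in a last exon of 2616 bases, while the other 8 run on to 46030 to 46674 bases. GENCODE, unlike RefSeq, lists this transcript as protein-coding, with 342 coding bases. The next longest, NR_104223, has 2739 bases, and the knockdown means exceeded it. NR_104224 therefore had to make up 62.9% to 91.8%, 56.2% to 90.4% and 77.8% to 95.1% of the SH3YL1 transcripts in knockdown replicates 1, 2 and 3 if the reference lengths hold. In the scramble libraries it could make up 0 to 55.8%, 0 to 54.9% and 0 to 59%, so the ranges met narrowly between scramble replicate 3 and knockdown replicate 2. The 4 coding transcripts could reach at most 70.3%, 71.7% and 65.2% in scramble and 13%, 15.3% and 7.77% in knockdown libraries. With each length free to vary by 5%, the lower limit for NR_104224 in knockdown libraries was 21.9% to 42.4% and the upper limit for the coding transcripts 20.1% to 27.3%, and with 10% the lower limit for NR_104224 was 0 in knockdown replicates 1 and 2.

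SH3YL1 counts overlapped between the groups only through scramble replicate 3. Scramble replicates 1, 2 and 3 had 11.2, 13.9 and 5.13 CPM, and the knockdown libraries 7.4, 8.29 and 5.66 CPM. The log2 fold change was -0.51 (SE 0.33), or -0.82 without scramble replicate 3. Per length the levels were 5.04, 6.33 and 2.08 FPKM in scramble and 2.4, 2.71 and 1.81 FPKM in knockdown libraries. Without scramble replicate 3 the scramble mean was 1.77-fold the knockdown mean in CPM and 2.46-fold in FPKM. With the reference lengths, the coding transcripts could be at no more than 3.54, 4.54 and 1.36 FPKM in scramble and 0.312, 0.415 and 0.141 FPKM in knockdown libraries. A level of 0 was allowed in each library, so no direction can be read from these limits. They are higher where the lengths may vary. ACP1, on the other strand, shares 29 bases with each of NR_104224 and NM_001282682 and 253 with NR_104225. It also shares 21 bases with NR_104223 and 15 with NM_001282687. ACP1 was at 168, 156 and 212 CPM in scramble and 165, 160 and 153 CPM in knockdown libraries and was not called (log2 fold change -0.16, SE 0.16, edgeR adjusted p = 0.602). Without strand, reads of the 2 genes there cannot be told apart, and the part of ACP1 in the SH3YL1 lengths was not tested.

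**Figure D4:**
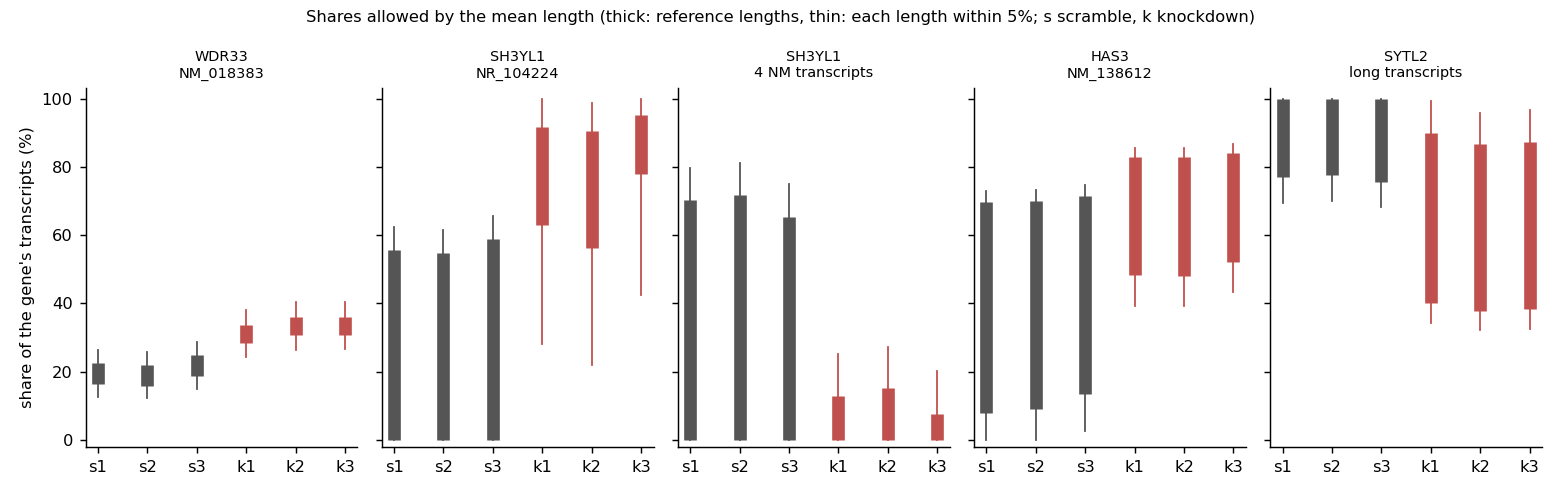
Lowest and highest share (percent of a gene's transcripts) that the mean length allows for 5 transcripts or classes, in scramble (s1 to s3) and knockdown (k1 to k3) libraries; thick bars use the reference lengths and thin lines let each length vary by 5%. With reference lengths, full-length WDR33 is at most 24.8% in scramble and at least 28.5% in knockdown libraries, while the other ranges meet or include 0.

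Scramble replicate 3 differed from the other scramble libraries in the counts of these genes far more than in their lengths. Its CPM was 41.5% of the mean of scramble replicates 1 and 2 for SYTL2, 40.8% for SH3YL1, 81.7% for WDR33 and 147% for HAS3. Its mean length differed from theirs by -35 bases for SYTL2, 68.1 for SH3YL1, -49.2 for HAS3 and 157.5 for WDR33, each less than the gap between the groups. GC content was 41.1% to 45.1% among the SYTL2 transcripts, 39.3% to 43.9% for SH3YL1, 38% to 50.2% for WDR33 and 52.7% to 60.6% for HAS3. HAS3, the gene with the highest GC content, was thus the one with a higher count in that library, and the part of GC content in this was not tested. For all 4 genes the length in scramble replicate 3 lay on the knockdown side of both other scramble libraries.

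**Figure D5:**
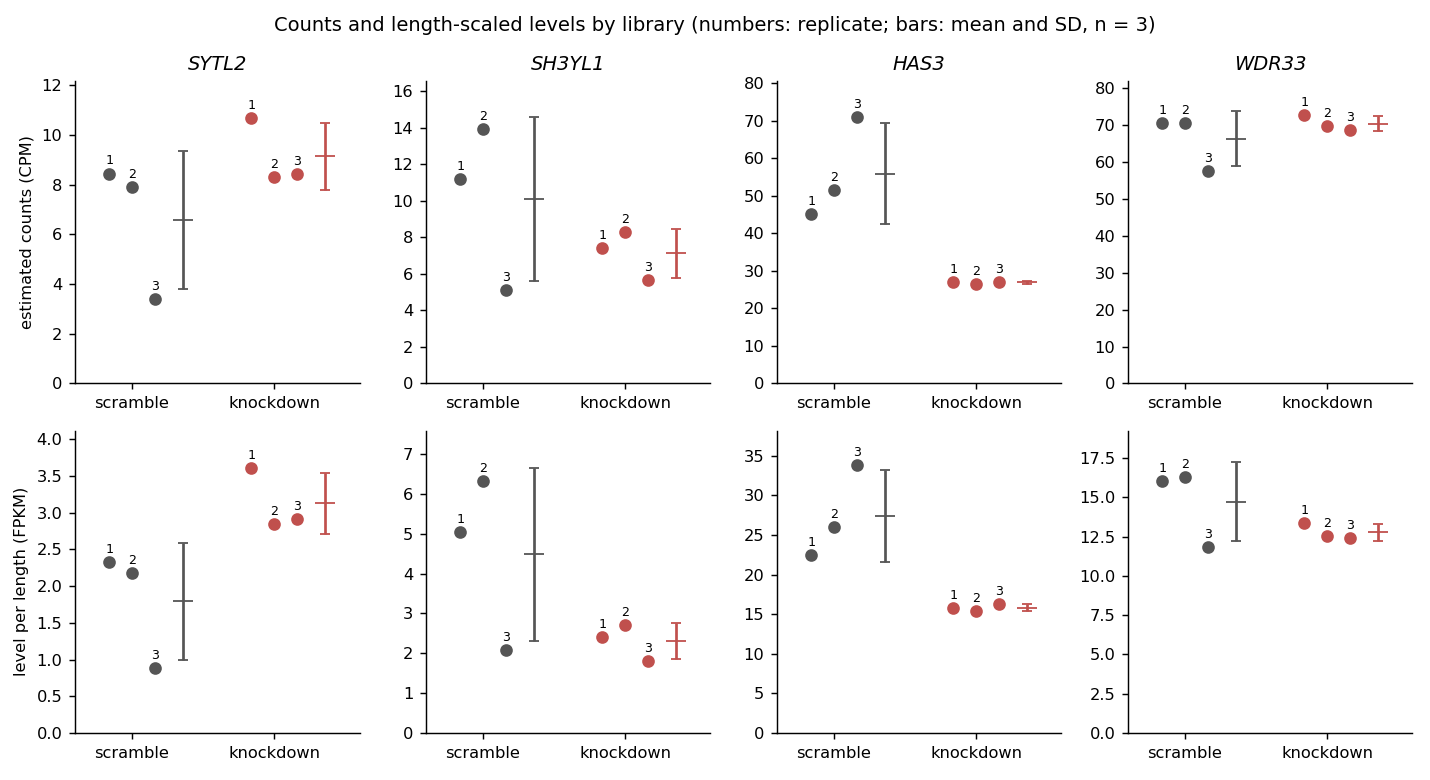
Counts in CPM (top) and FPKM, the level per length (bottom), of the 4 genes in each library, with replicate numbers and the group mean with SD (n = 3). HAS3 separates the groups on both scales and SYTL2 only per length. With scramble replicate 3 counted, SH3YL1 and WDR33 separate them on neither, and WDR33 still overlaps in CPM without it. The share of all genes that separate on these scales is not given here.

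Ordered by level per length in the scramble libraries, HAS3 (27.4 ± 5.8 FPKM) was highest, then WDR33 (14.7 ± 2.51), SH3YL1 (4.48 ± 2.18) and SYTL2 (1.8 ± 0.797; SD, n = 3 each). In the knockdown libraries the order was HAS3 (15.8 ± 0.425 FPKM), WDR33 (12.8 ± 0.539), SYTL2 (3.13 ± 0.42) and SH3YL1 (2.31 ± 0.457). SYTL2 and SH3YL1 thus stood in the other order. Their ranges met in scramble libraries (0.88 to 2.33 and 2.08 to 6.33 FPKM) only through scramble replicate 3, and they did not meet in knockdown libraries. The other neighbours in both orders did not overlap. With scramble replicate 3 left out, the scramble means were 24.2 FPKM for HAS3, 16.2 for WDR33, 5.69 for SH3YL1 and 2.25 for SYTL2, in the same order. The order is a description of these levels.

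The genes with the most similar length profile over the 6 libraries were sought among the 6511, as the smallest root mean square difference of log2 length relative to the scramble mean. For SYTL2 they were HAS3 (0.063), LINC01588 (0.072) and PHF19 (0.124), and for HAS3 they were PHF19 (0.09), UNK (0.094) and PPP2R1B (0.095). For SH3YL1 they were WDR33 (0.1), LRRC74B (0.105) and KAZN (0.114), and for WDR33 LRRC74B (0.057), IKBIP (0.063) and TVP23C (0.064). HAS3 was thus the nearest profile to SYTL2 and WDR33 the nearest to SH3YL1. The members were chosen on these same lengths, and few genes shift this far. Members that shift the same way therefore tend to lie near each other, and their nearness supports nothing further. SYTL2 itself was not among the 6511. Mean lengths went from 4579 to 5348 bases in WDR33 and from 3978 to 4667 bases in LRRC74B.

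The partners of each gene were examined in the fit of expression over all genes. By edgeR 1708 of 14812 genes were called at an adjusted p under 0.05 (11.5%), 873 higher (5.89%) and 835 lower (5.64%), and without scramble replicate 3 it was 7439 of 15029 (49.5%), 3857 higher and 3582 lower. Leaving out knockdown replicate 1, 2 or 3 gave 766, 742 and 729. Among 25 other genes of cleavage and polyadenylation, the machinery of WDR33, 0 were called by edgeR and 0 by DESeq2. At an unadjusted p under 0.05 by edgeR were 4 of them. Among the genes tested in the lists below it was 9 of 24 for Rab27, 10 of 16 for hyaluronan and 13 of 32 for phosphoinositides. The share of all genes at that unadjusted level is not given here, so the 4 cannot be set against it. The median log2 fold change of the 25 was 0.24, against 0.02 over all genes. The most abundant were the phosphatase subunit gene PPP1CB, at 220 ± 86 CPM in scramble and 226 ± 21.1 CPM in knockdown libraries (log2 fold change 0.04), and XRN2, the exonuclease that degrades the RNA left after cleavage, at 184 ± 49.2 and 242 ± 10.1 CPM (0.39, edgeR adjusted p = 0.278). CSTF2T, a paralogue of the cleavage stimulation factor subunit CSTF2, was at 0.54 (edgeR adjusted p = 0.0513) and passed with RLE size factors (0.0484); it is named after its value was seen. In the fit without scramble replicate 3, 12 rose and 4 fell of the 25, where 49.5% of all genes were called.

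Of 25 other genes of hyaluronan synthesis, binding and breakdown 16 could be tested, and 4 rose and 0 fell (median log2 fold change 0.45, with 11.5% of all genes called). DESeq2 called 5 higher and 1 lower, where it called 1889 of the 14812 genes in all. The hyaluronidase HYAL1 rose from 7.94 ± 1.71 to 24.9 ± 1.8 CPM, the related HYAL3 from 4.19 ± 1.17 to 12.8 ± 1.6 CPM, and CEMIP, a hyaluronan-binding protein needed for its breakdown, from 23.3 ± 5.4 to 62 ± 5.81 CPM (SD, n = 3 each). Its paralogue CEMIP2 rose from 178 ± 70.8 to 401 ± 9.62 CPM. Their edgeR adjusted p ran from 0.000801 for HYAL1 to 0.0258 for CEMIP2. The call on CEMIP2 was lost without any one knockdown library, at an adjusted p of 0.0863, 0.0868 and 0.0956 without replicates 1, 2 and 3. VCAN, a proteoglycan that binds hyaluronan, was at -0.21 (edgeR adjusted p = 0.733) and UGDH, which makes a precursor sugar, at -0.01 (0.991). The other synthases were near the limit of detection: HAS1 had 0 to 2 and HAS2 1 to 6 counts in a library, where 3 counts are 0.29 CPM at most. Leaving out scramble replicate 3, 8 hyaluronan genes rose and 6 fell of 16, where 49.5% of all genes were called.

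Of 27 other genes around Rab27 and vesicle docking 24 were tested, 3 rose and 3 fell (median log2 fold change -0.07, with 11.5% of all genes called). The vesicle SNARE gene VAMP8 rose from 1.8 ± 0.46 to 9.54 ± 1.55 CPM and UNC13D, a Rab27 effector that primes granules for release, from 26.5 ± 6.83 to 102 ± 2.83 CPM. SYTL1, a paralogue of SYTL2, fell from 7.05 ± 1.53 to 1.56 ± 0.4 CPM, and MLPH, which links Rab27 to myosin, from 285 ± 35.5 to 169 ± 3 CPM (SD, n = 3 each; edgeR adjusted p from 0.000377 for VAMP8 to 0.0108 for MLPH). RAB3A rose from 0.439 to 1.16 CPM (1.38, edgeR adjusted p = 0.0373) and RAB3D fell (-0.79, adjusted p = 0.0163). RAB11A, a GTPase of recycling endosomes, was at 0.28 and the myosin gene MYO5A at -0.13 (edgeR adjusted p = 0.421 and 0.825). SYTL4 was at 6.26 ± 0.939 CPM in scramble and 7.35 ± 0.646 CPM in knockdown libraries (log2 fold change 0.23, edgeR adjusted p = 0.512). SYTL3 (7 to 20 counts) and SYTL5 (0 to 3 counts) were too low to test. Leaving out scramble replicate 3, 5 of the 24 rose and 7 fell, a share near the 49.5% called over all genes. Without knockdown replicate 1, 2 or 3 it was 2 and 1 each time, with the calls on MLPH, RAB3D and RAB3A lost, and that on RAB3A was also lost without scramble replicate 1 (adjusted p = 0.0979) or 2 (0.0992), by DESeq2 (0.16), with a replicate block (0.0709) and with no filter on low counts (0.067).

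Of 34 phosphoinositide kinases, phosphatases and partners of SH3YL1, 32 were tested, 4 rose and 1 fell (median log2 fold change 0.09), a share near the 11.5% called over all genes, so these counts do not set the list apart. The lipid kinase gene PIK3C2B rose from 36.4 ± 7.13 to 70.4 ± 3.26 CPM, CYBA, the p22phox subunit of NADPH oxidases, from 34.7 ± 6.54 to 61.1 ± 2.31 CPM, and the lipid kinase gene PIP5K1C from 18.1 ± 2.95 to 30.9 ± 3.02 CPM. PIK3C3 also rose (0.82), and the phosphatase gene INPP5B fell from 26.2 ± 2.07 to 17.6 ± 0.912 CPM (SD, n = 3 each; edgeR adjusted p from 0.00878 for PIK3C2B to 0.047 for PIK3C3). INPPL1, the SHIP2 phosphatase, was at -0.59 (edgeR adjusted p = 0.0625) and OCRL at 0.04 (0.911). None of these 5 calls held without knockdown replicate 1 or 3, and PIK3C2B alone kept its call without knockdown replicate 2 (edgeR adjusted p = 0.0466) or scramble replicate 2. Without scramble replicate 1, PIK3C2B and PIK3C3 were called. The call on INPP5B was also lost by DESeq2 (0.0512), with a replicate block (0.109) and with no filter on low counts (0.0661), and that on PIK3C3 with RLE size factors (0.0525). Leaving out scramble replicate 3, 17 of the 32 were called, 7 higher and 10 lower, again near the share of all genes (49.5%).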

How the data were processed

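The authors deposited 1 file per library with RSEM expected counts (estimated counts, which need not be whole), FPKM values and a mean transcript length per gene, per the file headers. The tools RSEM, Bowtie2 and BWA and the build hg19 appear in the submitters' processing notes; roles and versions were not given in the sources used here. A gene missing from a file was taken as 0 counts. Totals ran from 10229890 to 10647587, and 3 counts equal 0.29 CPM at most. Entrez IDs were matched to symbols by a RefSeq table of GRCh38 (20727 of 20824, the rest with 0.147% of counts), and transcripts by accession to GENCODE 29, for lengths, exons and sequence; no positions are printed because builds differ.

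Rounded counts were fitted with edgeR 4.0.16 in R 4.3.3 (filterByExpr with a minimum of 10, TMM, quasi-likelihood test without covariates, Benjamini-Hochberg over 14812 genes, threshold 0.05). In simulated counts with 200 changed genes it recovered 58% of 2-fold and 97.5% of 4-fold changes, with 13 and 3 false calls. The simulation gave all libraries the same spread, with none set apart as scramble replicate 3 was, so these rates may not hold for the data. Errors are SDs of 3 libraries, and SE is the fold change over the root of its F statistic. Length ratios were compared over genes with at least 50 counts per library, without a test. Shares are the limits that a weighted mean of the transcript lengths allows. The depth behind a single transcript is unknown, since gene totals were used here. Python 3.11.15 was used.

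The members and gene lists were chosen with earlier results of these data known. Named are the members, C19orf12, paralogues SYTL1, SYTL3, SYTL4, SYTL5, HAS1 and HAS2, up to 4 called genes of each list by smallest p and 2 uncalled by highest CPM, the 3 nearest length profiles, and the 2 largest length shifts without overlap each way. Other called list genes and CSTF2T were named with their values known. The settings varied were RLE size factors, no filter, DESeq2 1.42.0, a replicate block, group medians, other count and fold limits, each library left out, and, chosen after seeing the data, reference lengths within 5% or 10%. The leukocyte marker list is not reported here.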

Additional observations from a re-analysis of the deposited data

How the results depend on the processing

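The length ratios of the 4 genes kept their direction under all alternatives run. On the log2 scale, leaving out each library in turn gave -0.402 to -0.388 for SYTL2, 0.353 to 0.379 for SH3YL1, -0.318 to -0.295 for HAS3 and 0.214 to 0.241 for WDR33. The gap between the share ranges of full-length WDR33, 3.7 percentage points, became -4.4 and -12.6 with reference lengths within 5% and 10%. The ranges then overlapped, so their separation was not kept at either tolerance. The log2 fold change of WDR33 (0.09) ran from -0.003 without scramble replicate 3 to 0.128 without scramble replicate 2.

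The 6 genes with a length shift became 16 with a minimum of 10 counts, 0 with a 1.5-fold limit and 7 to 16 with 1 library left out. Genes called by expression ran from 729 without knockdown replicate 3 to 7439 without scramble replicate 3. List calls with 1 library left out ran from 3 to 12 for Rab27 genes, 3 to 14 for hyaluronan, 0 to 16 for polyadenylation and 0 to 17 for phosphoinositide genes, the highest each time without scramble replicate 3, and RLE size factors gave 1 for polyadenylation. The causes were not tested. Deviations from the group means did not go together in same-numbered libraries (correlations of -0.05, 0.02 and -0.02). Because scramble replicate 3 dominates the scramble deviations, these values cannot show whether the replicate number pairs libraries. With the replicate number as a block 1654 genes in all were called, among them 5 Rab27, 5 hyaluronan, 0 polyadenylation and 7 phosphoinositide genes. Depth limits SYTL2 and SH3YL1 most, with as few as 35.09 and 53.01 counts in a library.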
